A study of Mus musculus with 36 samples.

Results

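The clustered protocadherins are cadherin-related adhesion proteins of the cell surface, encoded by neighbouring alpha, beta and gamma gene clusters. Each alpha and gamma isoform has a first exon and promoter of its own, and its transcript is spliced to exons that all isoforms of that cluster share, whereas each beta gene is a separate gene with its own promoter and no shared 3′ exons. In neurons each cell uses a few of these promoters, and the resulting combination of proteins binds like combinations on other membranes, which lets a neuron's own branches tell themselves from those of other cells. The genes were examined here in Bhas 42 cells, which are fibroblasts, and a gene counted as a member when its symbol began with Pcdha, Pcdhb, Pcdhga, Pcdhgb or Pcdhgc followed by a number and some group had 3 or more of its 4 arrays with the probe flagged well above background. The members were thus picked by their names and by these detection flags, but the gene family was chosen with earlier results of these data known. The reference gene table listed 56 such genes, 33 had a probe on the array, and 24 met that condition: 18 beta genes, 2 alpha genes and 4 gamma genes.

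Bhas 42 is a mouse fibroblast line made from BALB/c 3T3 cells by adding the v-Ha-ras oncogene, which cells of every group therefore carried, controls included; it is used to score cell transformation. On day 4 after seeding, cells received NM-203, a synthetic amorphous silica, at 1, 2 or 5 µg/cm², or water (2%) as the control, or 5 µg/cm² of diatomaceous earth (DE), which shares that water control. Further cells received Min-U-Sil 5, a crystalline silica, at 20 µg/cm² with separate water controls, or the phorbol ester TPA at 0.05 µg/ml with its solvent DMSO (0.1%) as control. All 9 groups were collected after 48 h, on day 6, with 4 samples each; per the series record there were 4 independent experiments, yet which sample came from which is not labelled, so p-values measure the spread between these samples only. Each of the 36 samples was hybridised to one 1-colour array, and precision is limited by how many arrays there were. Levels are log2 intensities set against each array's 75th percentile, which is 0, so a level of -1 lies 1 doubling below it, and levels of different probes cannot be ranked against each other. In RNA from whole cultures, fewer cells with a transcript and less transcript per cell cannot be told apart.

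Across genes, arrays of one group correlated at r = 0.953 to 0.993. The cells carried the labelled type's markers: all 10 fibroblast markers examined were well above background in every group, while the pan-leukocyte gene Ptprc, the epithelial gene Epcam, the endothelial gene Tek and the neurofilament gene Nefl were above it on 0 of 36 arrays. Other markers of those lineages were present: in every group 6 of 8 neuron markers were detected (Syt1 and Map2 among them), 5 of 7 macrophage markers (Itgam, Csf1r, Cd68, Aif1 and Lyz2), 5 of 6 glia markers, 2 of 6 epithelial markers (Krt8 and Cldn4) and 1 of 5 endothelial markers (Pecam1). Water, DE, DMSO and TPA arrays were all scanned on the first of 2 days, the arrays of NM-203 at 2 µg/cm², Min-U-Sil 5 and its water on the second, and NM-203 at 1 and 5 µg/cm² had 1 array each on the second day.

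Of the 24 members, 16 were well above background on all 36 arrays. They were 13 beta genes (Pcdhb5, Pcdhb6, Pcdhb7, Pcdhb9, Pcdhb12, Pcdhb14 to Pcdhb18, Pcdhb20, Pcdhb21 and Pcdhb22), the alpha isoforms Pcdha8 and Pcdha9, and the gamma isoform Pcdhga9. The counts below are over these 16, because a gene admitted only through a group in which it is bright would differ between groups by selection. The other 8 (Pcdhb1, Pcdhb3, Pcdhb4, Pcdhb8, Pcdhb10, Pcdhga1, Pcdhga10 and Pcdhgc5) fell short in at least 1 group and are described by their levels. Among the 9 clustered genes that did not meet the condition, Pcdhb11 and Pcdhb13 were above background on 0 of 36 arrays. At the edge of the condition, Pcdhga10 passed through 1 group alone (Min-U-Sil 5, 4 of 4 arrays), while Pcdhb2 and Pcdhgb1 stayed outside with 2 of 4 arrays in their best group. These flags are given as a description, without a test.

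**Figure D1:**
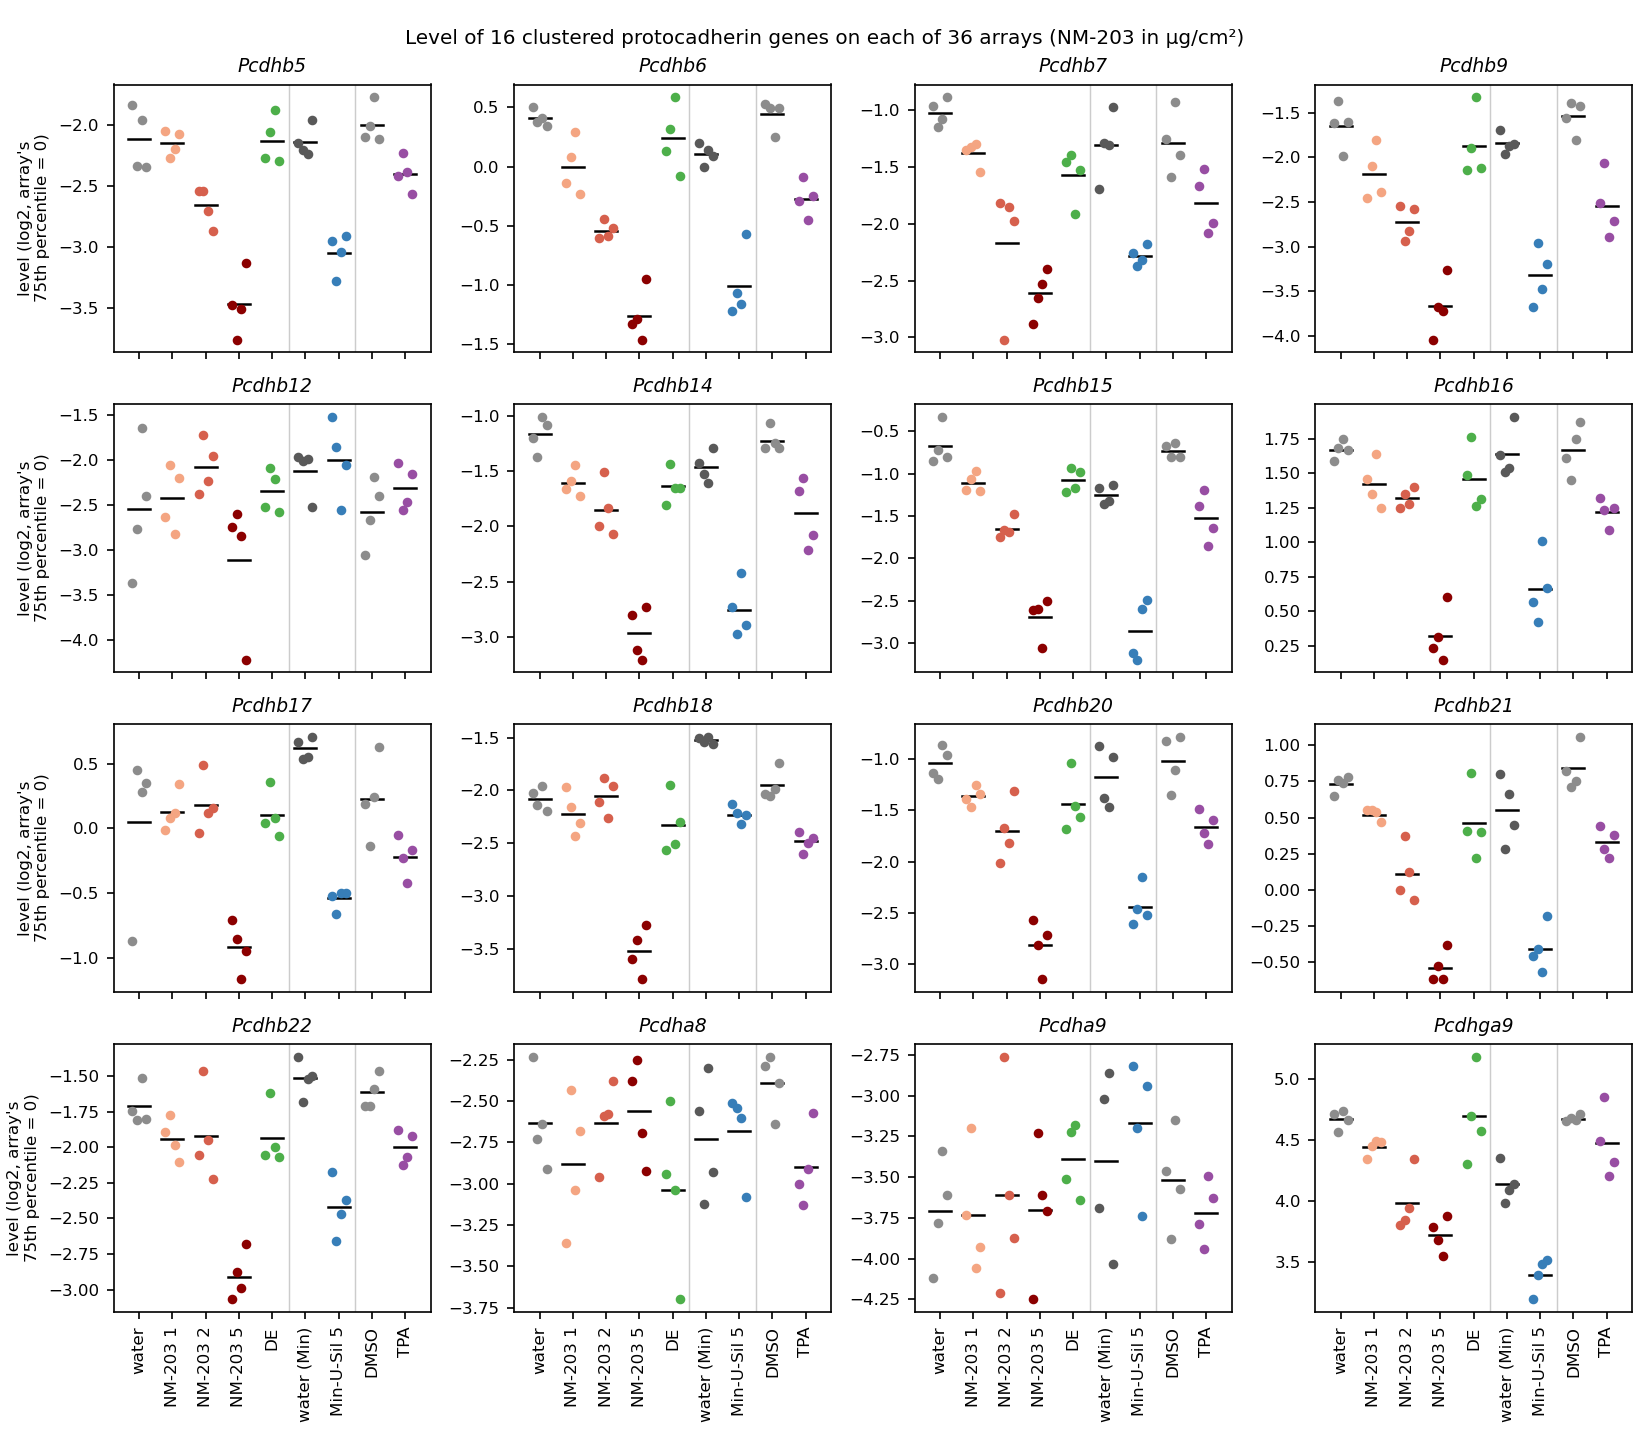
Level (log2, array's 75th percentile = 0) of the 16 genes detected in every group, one panel per gene with its own scale; each point is 1 array, each bar the mean of 4, and grey points are the controls of the treatments beside them. Most beta panels are lowest in NM-203 at 5 µg/cm² and Min-U-Sil 5, with TPA between these and DMSO, while Pcdhb12, Pcdha8 and Pcdha9 overlap across groups.

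NM-203 at 5 µg/cm² was compared with water to see what the highest dose of this silica changed. Nearly all beta genes detected in every group fell: 12 of 13 were lower, by 1.97-fold to 4.08-fold, and none was higher. The gamma isoform Pcdhga9 fell as well, while neither alpha isoform was called. A gene was called when its p from limma, adjusted by Benjamini-Hochberg over all 32492 genes tested, was under 0.05. In all, 13 of 16 members were lower, against 33.1% of all genes called in either direction and 19.1% called lower. Of those 32492 genes, 23249 were detected in every group, as all 16 members were. Only 17870 of the 32492 had a gene symbol, as every member does. The others are array targets without a symbol, each counted as a gene. The shares over the 23249 alone or the 17870 alone were not computed, here or below. The median log2 change of the 13 beta genes was -1.44, a 2.72-fold lower level, against 0.007 over all genes tested.

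Pcdhb9 had the largest fall. Its levels were -1.62, -1.37, -1.99 and -1.60 in water and -4.04, -3.68, -3.72 and -3.26 after NM-203 at 5 µg/cm². Every treated array lay below every water array. The log2 change was -2.03 ± 0.20 (SE, n = 4 per group), a 4.08-fold lower level (limma adjusted p = 1.35e-09). Pcdhb15 stood at -0.85, -0.72, -0.33 and -0.81 in water and at -2.61, -2.59, -3.06 and -2.50 after treatment. Here too the groups were far apart, and the change of -2.01 ± 0.15 was 4.04-fold (limma adjusted p = 8.7e-12).

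A further group of beta genes fell by more than 3-fold. Pcdhb14 read -1.20, -1.37, -1.01 and -1.09 in water against -2.80, -3.11, -3.20 and -2.73 treated, a log2 change of -1.79 ± 0.14 (limma adjusted p = 3.93e-11). For Pcdhb20 the water arrays gave -1.14, -1.19, -0.86 and -0.96 and the treated arrays -2.57, -2.81, -3.15 and -2.72, a change of -1.78 ± 0.16 (limma adjusted p = 5.29e-10). Both pairs of groups were separated by more than 1 log2 unit. Pcdhb6 went from 0.50, 0.38, 0.41 and 0.34 to -1.33, -1.29, -1.46 and -0.95, a change of -1.66 ± 0.14 (limma adjusted p = 6.21e-11), and Pcdhb7 from -0.96, -1.15, -1.08 and -0.88 to -2.88, -2.65, -2.53 and -2.40, a change of -1.60 ± 0.19 (limma adjusted p = 7.77e-08). Neither gene's treated arrays reached its water arrays. The remaining 6 called beta genes, Pcdhb5, Pcdhb16, Pcdhb17, Pcdhb18, Pcdhb21 and Pcdhb22, had log2 changes between -0.98 and -1.44.

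Pcdhb17 and Pcdhb12 were less clear-cut. For Pcdhb17, water replicate 1 read -0.87 where the other 3 read 0.45, 0.28 and 0.35, and it lay among the treated arrays (-0.71, -0.86, -1.17 and -0.95); the change was -0.98 ± 0.19 (limma adjusted p = 0.000128). It was the only called member whose groups overlapped: 12 of 16 members lay wholly below water, as did 20.1% of all genes. Pcdhb12 was the beta gene not called, at -3.37, -2.77, -1.65 and -2.40 in water and -2.75, -2.60, -2.85 and -4.22 treated. Its groups overlapped widely, with a change of -0.56 ± 0.31 (limma adjusted p = 0.19).

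Pcdhga9, a gamma isoform, is read by 2 probes, and since gamma transcripts share their 3′ exons a probe there would read other gamma isoforms too; where these probes lie was not determined. The brighter probe gave 4.71, 4.56, 4.73 and 4.66 in water and 3.78, 3.68, 3.55 and 3.87 treated, with no overlap and a log2 change of -0.95 ± 0.14, or 1.93-fold lower (limma adjusted p = 2.77e-06). The other probe changed by -0.86 ± 0.15 (limma adjusted p = 3.78e-05 over all probes). Both probes thus gave a fall of similar size. The alpha isoforms did not move past the threshold: Pcdha8 changed by 0.07 ± 0.23 and Pcdha9 by 0.01 ± 0.28. Their 95% confidence intervals ran from -0.39 to 0.53 and from -0.56 to 0.58. Where the alpha and beta probes lie was not determined either, and alpha transcripts also share 3′ exons.

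Within the slides that held both groups, the beta medians were -1.41 on slide 1 (2 treated arrays, 1 water) and -1.57 on slide 3 (1 of each). Fibroblast markers moved in the same comparison: 7 of 10 were called lower, and their summed level ran from 625 to 837 against 1000 to 1120 in water. Of the 6 neuron markers tested, 4 were lower, with a summed level of 13.4 to 24.7 against 28.3 to 34.1. Of 6 macrophage markers tested, 3 were lower (summed level 14.7 to 20.2 against 18.8 to 27.5), as were 2 of 4 endothelial (0.136 to 0.21 against 0.227 to 0.308), 1 of 3 epithelial (0.146 to 0.197 against 0.263 to 0.289) and 1 of 5 glia markers (0.535 to 0.806 against 0.401 to 0.776). Their part in the protocadherin changes was not tested.

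**Figure D2:**
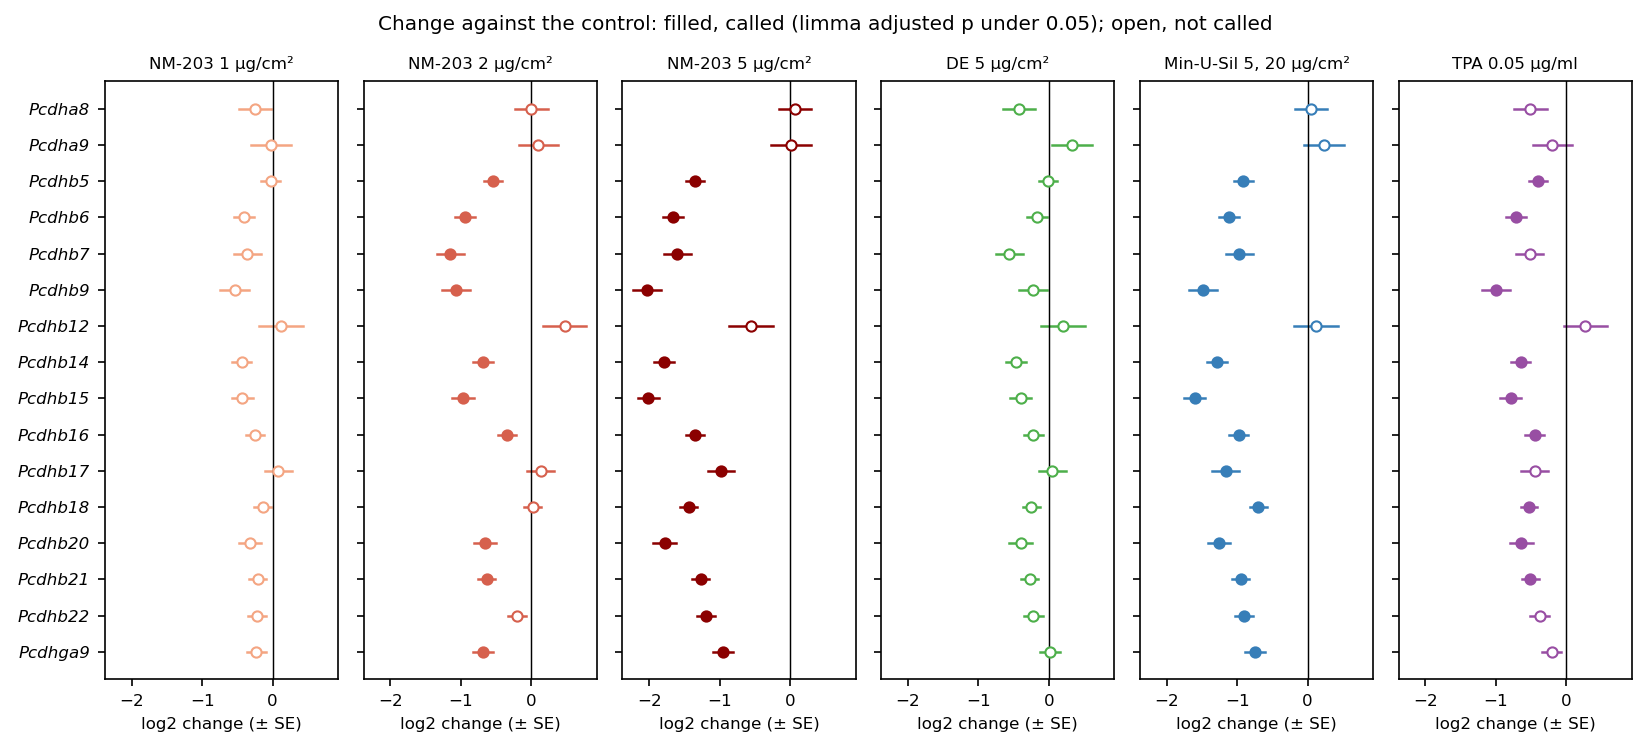
Log2 change against the control (x axis; bars, ± SE of the fit; n = 4 per group) of the 16 genes detected in every group in the 6 treatment comparisons, genes in cluster order from alpha to gamma. Filled points were called by limma: 0, 10, 13, 0, 13 and 9 genes from left to right, each of them lower than its control.

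The 3 doses of NM-203 were set side by side to see where the fall began. At 1 µg/cm² no member was called, 0 of 16 against 0.0862% of all genes (0.0431% lower), and 4 members had an unadjusted p under 0.05. The share of all genes under that unadjusted threshold was not computed, here or below, so such counts have no background to be set against. The beta median was -0.25 against -0.016 over all genes, and 11 of 13 beta genes were below water, as were 53.3% of all genes. The 13 genes were read on the same arrays and are not replicates of each other. Groups lay apart, all 4 treated arrays below all 4 water arrays, for 7 of 16 members against 3.49% of all genes. Pcdhb14 was one of them, at -1.66, -1.59, -1.45 and -1.73 against -1.20, -1.37, -1.01 and -1.09 in water, with a change of -0.44 ± 0.14 (limma adjusted p = 0.384). Pcdhb15 was another, at -1.19, -1.07, -0.97 and -1.21, a change of -0.43 ± 0.15 (limma adjusted p = 0.444). Within slides 1, 2 and 3 the beta medians were -0.23, -0.18 and -0.31, each from 1 treated array and 1 or 2 water arrays.

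At 2 µg/cm², 10 of 16 members fell against water, 9 beta genes and Pcdhga9, where 25% of all genes were called and 8.85% called lower. The beta median was -0.63, a 1.54-fold lower level, while the median of all genes was 0.114. These arrays were scanned on another day than the water arrays and shared no slide with them. With the slide or the scan day as a block 4 members stayed called, and against the Min-U-Sil 5 water arrays, scanned on the same day, 8 of 16 were lower (15.6% of all genes called, 7.88% lower), all of them beta genes, with a beta median of -0.44 against -0.18 over all genes. Within slide 4, with 1 treated array against 2 controls, the beta median of that comparison was -0.24, against -0.07 over all genes. That treated array, replicate 2, had the most outlier spots of all arrays (380) and the lowest weight (0.21) when arrays were weighted. Within slide 5, with 3 treated arrays against 2, the beta median was -0.61, against -0.03 over all genes. There limma called 0 members (12 at an unadjusted p under 0.05), where 0.988% of all genes were called. Against first-day water 3 of 10 fibroblast markers were lower, 3 of 6 neuron markers lower and 1 higher, and 1 of 6 macrophage markers lower and 2 higher. Also against first-day water, 1 of 5 glia and 1 of 4 endothelial markers were lower, and 0 of 3 epithelial markers were called. The summed fibroblast level was 978 to 1290, against 1000 to 1120 in first-day and 1010 to 1420 in same-day water. Their part in the result was not tested.

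Pcdhb7 had the largest change with all 4 arrays, at levels of -1.82, -3.02, -1.85 and -1.98, all below the water arrays, and a change of -1.15 ± 0.19 (limma adjusted p = 6.22e-05). Its replicate 2 lay more than 1 log2 unit below the others, and without that array its change was -0.87, smaller than those of Pcdhb9 (-1.0) and Pcdhb15 (-0.96). Pcdhb9 read -2.54, -2.94, -2.82 and -2.58, a change of -1.07 ± 0.20 (limma adjusted p = 0.000169), and Pcdhb15 read -1.75, -1.67, -1.69 and -1.48, a change of -0.97 ± 0.15 (limma adjusted p = 2.04e-05). Pcdhb6, at -0.60, -0.44, -0.59 and -0.52, changed by -0.94 ± 0.14 (limma adjusted p = 9.89e-06). All of these lay wholly below water, as did 7.61% of all genes. Smaller falls were found for Pcdhb14 (-0.69 ± 0.14), Pcdhga9 (-0.69 ± 0.14) and Pcdhb20 (-0.66 ± 0.16). The other probe of Pcdhga9 gave -1.17 ± 0.15 (limma adjusted p = 2.12e-06 over all probes), and -0.30 ± 0.15 against same-day water, where neither probe was called. With the scan day as a block the changes of Pcdhb7, Pcdhb9 and Pcdhb14 were -0.86, -0.70 and -0.72 and no longer called (limma adjusted p = 0.0864, 0.185 and 0.0598). Against the same-day water arrays Pcdhb7 and Pcdhb9 were 1.80-fold and 1.84-fold lower (limma adjusted p = 0.00336 and 0.00312), whereas Pcdhb14, Pcdhb15 and Pcdhga9 were not called, at -0.39, -0.40 and -0.16. Pcdhb12, Pcdhb17, Pcdhb18 and Pcdhb22 were not called against first-day water at this dose, with changes of 0.47, 0.13, 0.02 and -0.20.

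The highest dose was also set against the lowest. Between 5 and 1 µg/cm², 13 of 16 members were lower at the higher dose, 12 beta genes and Pcdhga9, against 28.1% of all genes called and 15.5% called lower, with a beta median of -1.26. Pcdhb15 differed by -1.58 ± 0.15 (limma adjusted p = 1.6e-09) and Pcdhb9 by -1.49 ± 0.20 (limma adjusted p = 5.48e-07). Pcdhga9 differed by -0.72 ± 0.14 (limma adjusted p = 0.000164). On the 3 slides that held both doses, with 1 or 2 arrays of a dose on each, the beta medians were -1.18, -1.33 and -1.10.

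**Figure D3:**
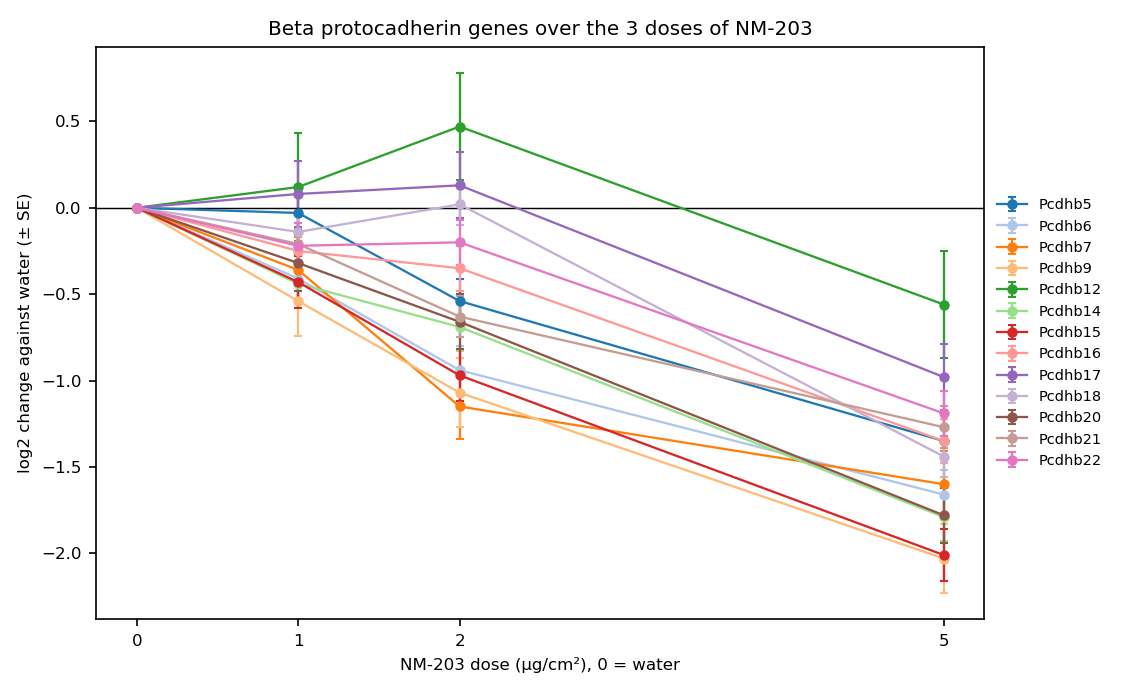
Log2 change against water (y axis; bars, ± SE) of the 13 beta genes detected in every group at 0 (water), 1, 2 and 5 µg/cm² of NM-203 (x axis, linear). At 5 µg/cm² the 13 genes lie between -2.03 and -0.56, and at 1 µg/cm² between -0.54 and 0.12; the 2 µg/cm² arrays were scanned on another day than water.

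Diatomaceous earth, given at the same 5 µg/cm² as the highest NM-203 dose, called 0 of 16 members, where 1.01% of all genes were called and 0.449% called lower; 6 members had an unadjusted p under 0.05. The beta median was -0.22 against -0.019 over all genes, and 11 of 13 beta genes were below water, as were 53.1% of all genes. Pcdhb7 had the largest change, with levels of -1.46, -1.39, -1.91 and -1.53 against -0.96, -1.15, -1.08 and -0.88 in water. The groups did not overlap, but the change of -0.56 ± 0.19 was not called (limma adjusted p = 0.213). Groups lay apart for 3 members, Pcdhb7, Pcdhb14 and Pcdhb15, against 4.81% of all genes. Pcdhga9 read 4.30, 4.69, 5.18 and 4.57, on both sides of its water arrays, a change of 0.02 ± 0.14. Within slides 1, 2 and 3 the beta medians were -0.37, -0.30 and -0.27, with 1 or 2 arrays per group on each slide.

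NM-203 and DE were compared directly, since their doses were equal. After NM-203 13 of 16 members were lower than after DE, against 29.2% of all genes called and 15.2% called lower, and the beta median was -1.19. Pcdhb9 was 3.50-fold lower (limma adjusted p = 1.76e-08), Pcdhb15 3.06-fold (limma adjusted p = 1.02e-09) and Pcdhb6 2.83-fold (limma adjusted p = 8.53e-10). Pcdhga9 was 1.96-fold lower (limma adjusted p = 2.68e-06). Pcdhb12, Pcdha8 and Pcdha9 did not differ past the threshold, with differences of -0.76 ± 0.31, 0.49 ± 0.23 and -0.31 ± 0.28. Within slides 1 and 3 the beta medians were -1.1 and -1.2, with 1 or 2 arrays per group on each slide.

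Min-U-Sil 5, the crystalline silica, was compared with its own water arrays of the same scan day. Here 13 of 16 members fell, 12 beta genes and Pcdhga9, against 25.6% of all genes called and 13.9% called lower. The beta median was -0.98, a 1.97-fold lower level, against 0.042 over all genes. The called beta genes were the same 12 as with NM-203 at 5 µg/cm², and Pcdhb12 was again the one not called, at 0.12 ± 0.31. All 13 had treated arrays wholly below the control arrays, as did 15.6% of all genes.

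Pcdhb15 fell most. It read -1.17, -1.36, -1.32 and -1.13 in the controls and -3.11, -3.19, -2.60 and -2.49 after Min-U-Sil 5, a change of -1.60 ± 0.15 or 3.04-fold (limma adjusted p = 2.08e-09). The gap between the groups exceeded 1 log2 unit. Pcdhb9 went from -1.69, -1.96, -1.87 and -1.85 to -3.68, -2.96, -3.47 and -3.19, a change of -1.48 ± 0.20 (limma adjusted p = 8.77e-07). Pcdhb14 went from -1.43, -1.53, -1.61 and -1.29 to -2.73, -2.97, -2.42 and -2.89, a change of -1.29 ± 0.14 (limma adjusted p = 4.72e-08). These are the genes that also led with NM-203. Pcdhb20 and Pcdhb6 fell by 1.26 and 1.11 on the log2 scale (limma adjusted p = 5.87e-07 and 2.61e-07). Pcdhb17 was tighter here than in the NM-203 comparison, at 0.67, 0.54, 0.55 and 0.71 against -0.52, -0.66, -0.50 and -0.50, a change of -1.16 ± 0.19 (limma adjusted p = 2.16e-05).

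The brighter probe of Pcdhga9 read 4.35, 3.98, 4.09 and 4.14 in the controls and 3.19, 3.39, 3.48 and 3.51 after Min-U-Sil 5, again without overlap, a change of -0.75 ± 0.14 (limma adjusted p = 0.000142). Its other probe changed by -0.47 ± 0.15 (limma adjusted p = 0.0223). Pcdha8 and Pcdha9 were not called, at 0.05 ± 0.23 and 0.23 ± 0.28. Within slide 4 (3 treated arrays, 2 control) the beta median was -0.97 and 13 members were called lower, where 18.5% of all genes were called. Within slide 5 (1 treated array, 2 control) it was -1.06. Fibroblast markers fell in this comparison too, 7 of 10, with a summed level of 782 to 864 against 1010 to 1420; 2 of 6 neuron markers, 2 of 6 macrophage markers and 1 each of the glia, epithelial and endothelial markers fell. Their part in the result was not tested.

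TPA, a phorbol ester that activates protein kinase C and promotes transformation, was compared with DMSO. Of the 16 members 9 fell, all of them beta genes, against 11.7% of all genes called and 6.78% called lower, and none rose. The beta median was -0.52, a 1.44-fold lower level, against -0.044 over all genes. These 9 genes (Pcdhb5, Pcdhb6, Pcdhb9, Pcdhb14, Pcdhb15, Pcdhb16, Pcdhb18, Pcdhb20 and Pcdhb21) were also called lower with NM-203 at 5 µg/cm² and with Min-U-Sil 5. Scaling each array on the median of the genes tested left 5 of them called.

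Pcdhb9 read -1.56, -1.39, -1.80 and -1.42 in DMSO and -2.51, -2.06, -2.89 and -2.71 with TPA, a change of -1.0 ± 0.20 or 2.00-fold (limma adjusted p = 0.000619). Pcdhb15 went from -0.68, -0.80, -0.64 and -0.80 to -1.38, -1.19, -1.85 and -1.64, a change of -0.79 ± 0.15 (limma adjusted p = 0.000411). Pcdhb6 went from 0.53, 0.49, 0.25 and 0.49 to -0.29, -0.09, -0.45 and -0.25, a change of -0.71 ± 0.14 (limma adjusted p = 0.000525). None of the 3 genes had a TPA array within the DMSO range. Pcdhb14, Pcdhb20 and Pcdhb18 fell by 0.65, 0.64 and 0.53 on the log2 scale (limma adjusted p = 0.00215, 0.00821 and 0.00274). Pcdhb7, Pcdhb17 and Pcdhb22 were not called, at -0.52 ± 0.19, -0.45 ± 0.19 and -0.38 ± 0.13 (limma adjusted p = 0.0805, 0.144 and 0.0635).

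Outside the beta cluster TPA called no member: Pcdhga9 read 4.49, 4.85, 4.20 and 4.32 against 4.65, 4.68, 4.66 and 4.71 in DMSO, a change of -0.21 ± 0.14 (limma adjusted p = 0.423), and Pcdha8 and Pcdha9 changed by -0.51 ± 0.23 and -0.20 ± 0.28. Groups lay apart for 10 of 16 members, against 11.7% of all genes. Only slide 1 held both groups, with 2 TPA arrays and 1 DMSO array; its beta median was -0.56 and limma called 0 of 16 members there (10 at an unadjusted p under 0.05), where 1.41% of all genes were called. Of the fibroblast markers 2 of 10 fell, with a summed level of 928 to 1010 against 1100 to 1230 in DMSO. Also lower were 2 of 6 macrophage, 1 of 6 neuron, 1 of 3 epithelial and 1 of 4 endothelial markers tested, and 0 of 5 glia markers. The part of all these markers in the result was not tested.

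The sizes of the changes were then compared between treatments, each taken against its own control; doses were not matched. The fall was smaller with TPA than with NM-203 at 5 µg/cm²: the difference of the changes was called for 12 of 16 members, 11 beta genes and Pcdhga9, with 14.8% of all genes called and 7.05% called in the same direction. The beta median of these differences was 0.94. It was 1.23 ± 0.21 for Pcdhb15 (limma adjusted p = 0.000122), 1.14 ± 0.20 for Pcdhb14 (limma adjusted p = 0.000191) and 0.74 ± 0.20 for Pcdhga9 (limma adjusted p = 0.0101). Scaling on the median of the genes tested left 7 called.

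Between Min-U-Sil 5 at 20 µg/cm² and NM-203 at 5 µg/cm², 0 of 16 differences were called by limma, against 0.2% of all genes; 7 had an unadjusted p under 0.05, and the beta median of the differences was 0.50. The largest was Pcdhb18, at 0.74 ± 0.17 with a 95% confidence interval from 0.39 to 1.09 (limma adjusted p = 0.0678), and Pcdhb15 differed by 0.41 with an interval from -0.02 to 0.84. A single member (1 of 16) was called without replicate 4 of NM-203 at 5 µg/cm² or without replicate 3 of Min-U-Sil 5, and 2 with array weights. Between TPA and Min-U-Sil 5 the difference was called for Pcdhb15 alone, at 0.82 ± 0.21 (limma adjusted p = 0.0169), against 5.89% of all genes called and 2.56% called in the same direction. That call was lost under normexp background correction with quantile normalization, under median scaling, with the slide as a block, without the arrays of slide 4, and without replicate 2 of Min-U-Sil 5 or of TPA; 4 genes were called with array weights, 3 without replicate 3 of Min-U-Sil 5 and 2 without replicate 3 or 4 of TPA.

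Across the 9 groups, and with no test, the mean level of Pcdhb15 was highest in water (-0.68 ± 0.24, SD, n = 4) and DMSO (-0.73 ± 0.08), followed by DE (-1.08 ± 0.14), NM-203 at 1 µg/cm² (-1.11 ± 0.11) and the Min-U-Sil 5 water (-1.25 ± 0.11). TPA (-1.52 ± 0.29) and NM-203 at 2 µg/cm² (-1.65 ± 0.12) came next, and NM-203 at 5 µg/cm² (-2.69 ± 0.25) and Min-U-Sil 5 (-2.85 ± 0.35) were lowest. In this order DMSO and DE, NM-203 at 1 µg/cm² and the Min-U-Sil 5 water, and NM-203 at 2 and at 5 µg/cm² differed by more than the larger SD of the pair, and the other neighbours by less. The water controls of the 2 scan days were themselves not at the same level for every gene. Pcdhb18 read -2.02, -2.14, -1.96 and -2.19 in the first and -1.50, -1.54, -1.49 and -1.56 in the second, and Pcdhga9 had means of 4.67 ± 0.08 and 4.14 ± 0.16; these control groups were not tested against each other.

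The 8 members not detected in every group came close to background in some groups. Pcdhb4 read -4.77, -4.78, -4.77 and -4.92 in water and cleared background on 0 of 4 arrays of NM-203 at 5 µg/cm² (-6.98, -5.31, -7.00 and -7.05). Against the lowest signal well above background this was at least 1.28-fold lower. Pcdhb3 likewise was not well above background there, going from -5.22, -5.05, -5.00 and -4.74 to -7.15, -5.33, -5.82 and -6.10, at least 1.12-fold lower. It stayed detected after Min-U-Sil 5, at -3.13, -3.28, -4.50 and -3.28. Pcdhb10 was detected on 1 of 4 arrays at 5 µg/cm² of NM-203 and on 4 of 4 in every other group, with means of -4.08 ± 0.10 in water and -5.34 ± 0.35 treated. Pcdhb8 and Pcdhgc5 were also down to 1 of 4 arrays in that group, at -5.14 ± 0.36 and -5.18 ± 0.47, and Pcdhga1 to 2 of 4, at -5.03 ± 0.54 against -4.12 ± 0.16 in water. Pcdhb1 did not share this pattern: it was detected on 4 of 4 arrays in NM-203 at 5 µg/cm² and 3 of 4 in water, with means of -4.54 ± 0.46 and -4.95 ± 1.08. Pcdhga10 was detected on 12 of 36 arrays, 4 of them after Min-U-Sil 5.

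The position of the genes was used to see how far the change ran along the chromosome. In the reference table's order the alpha isoforms come first, then the beta genes from Pcdhb1 to Pcdhb22, then Slc25a2 and Taf7, a subunit of the general transcription factor TFIID, then the gamma isoforms and Diaph1, an actin-nucleating formin. With NM-203 at 5 µg/cm² the called beta genes ran from Pcdhb5 to Pcdhb22, the first and last beta genes detected in every group. Of the members before Pcdhb5, Pcdhb3 and Pcdhb4 were well above background on 0 of 4 arrays at this dose. Pcdhb1, at the start of the beta genes, was not lower, with means of -4.54 against -4.95 in water. Pcdhac2, the last alpha-cluster isoform, which lies next to the beta genes but has no numbered name of the kind required above, fell by 0.99 on the log2 scale (limma adjusted p = 6.53e-05), by 0.68 with Min-U-Sil 5 (limma adjusted p = 0.0059) and by 0.57 with TPA (limma adjusted p = 0.0411). Between the beta and gamma genes Taf7 was not called, with changes of 0.12 ± 0.21, 0.08 ± 0.21 and -0.24 ± 0.21 in these comparisons. Diaph1, past the gamma genes, was not called either, at 0.12 ± 0.17, 0.18 ± 0.17 and -0.04 ± 0.17.

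Among 16 neighbouring genes tested from a list of 18, which leaves out some genes nearby, none was called lower and 2 were called higher with NM-203 at 5 µg/cm²: the histidyl-tRNA synthetase gene Hars, by 0.65 ± 0.11 (limma adjusted p = 2.22e-05), and Wdr55, by 0.52 ± 0.10 (limma adjusted p = 4.56e-05). Min-U-Sil 5 called 2 higher, the same genes, and 2 lower, Zmat2 (-0.42 ± 0.10) and Hars2 (-0.38 ± 0.12). TPA called 0 of 16 (limma). Over all genes, 33.1%, 25.6% and 11.7% were called in these comparisons, and 19.1%, 13.9% and 6.78% were called lower. The median changes of the list were -0.05, 0.04 and -0.03, against beta medians of -1.44, -0.98 and -0.52. In a wider window of 22 neighbours, 3 were lower with NM-203 at 5 µg/cm² (E230025N22Rik, Apbb3 and Pcdh1) and 4 with Min-U-Sil 5 (E230025N22Rik, Apbb3, Zmat2 and Hars2); 2 were higher in each. E230025N22Rik and Apbb3 were chosen here after their values were seen. E230025N22Rik fell by 2.55 on the log2 scale with NM-203 at 5 µg/cm² (limma adjusted p = 1.12e-11) and by 1.92 with Min-U-Sil 5 (limma adjusted p = 6.7e-09). Apbb3 changed by -0.46 and -0.48 (limma adjusted p = 0.00651 and 0.00667).

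**Figure D4:**
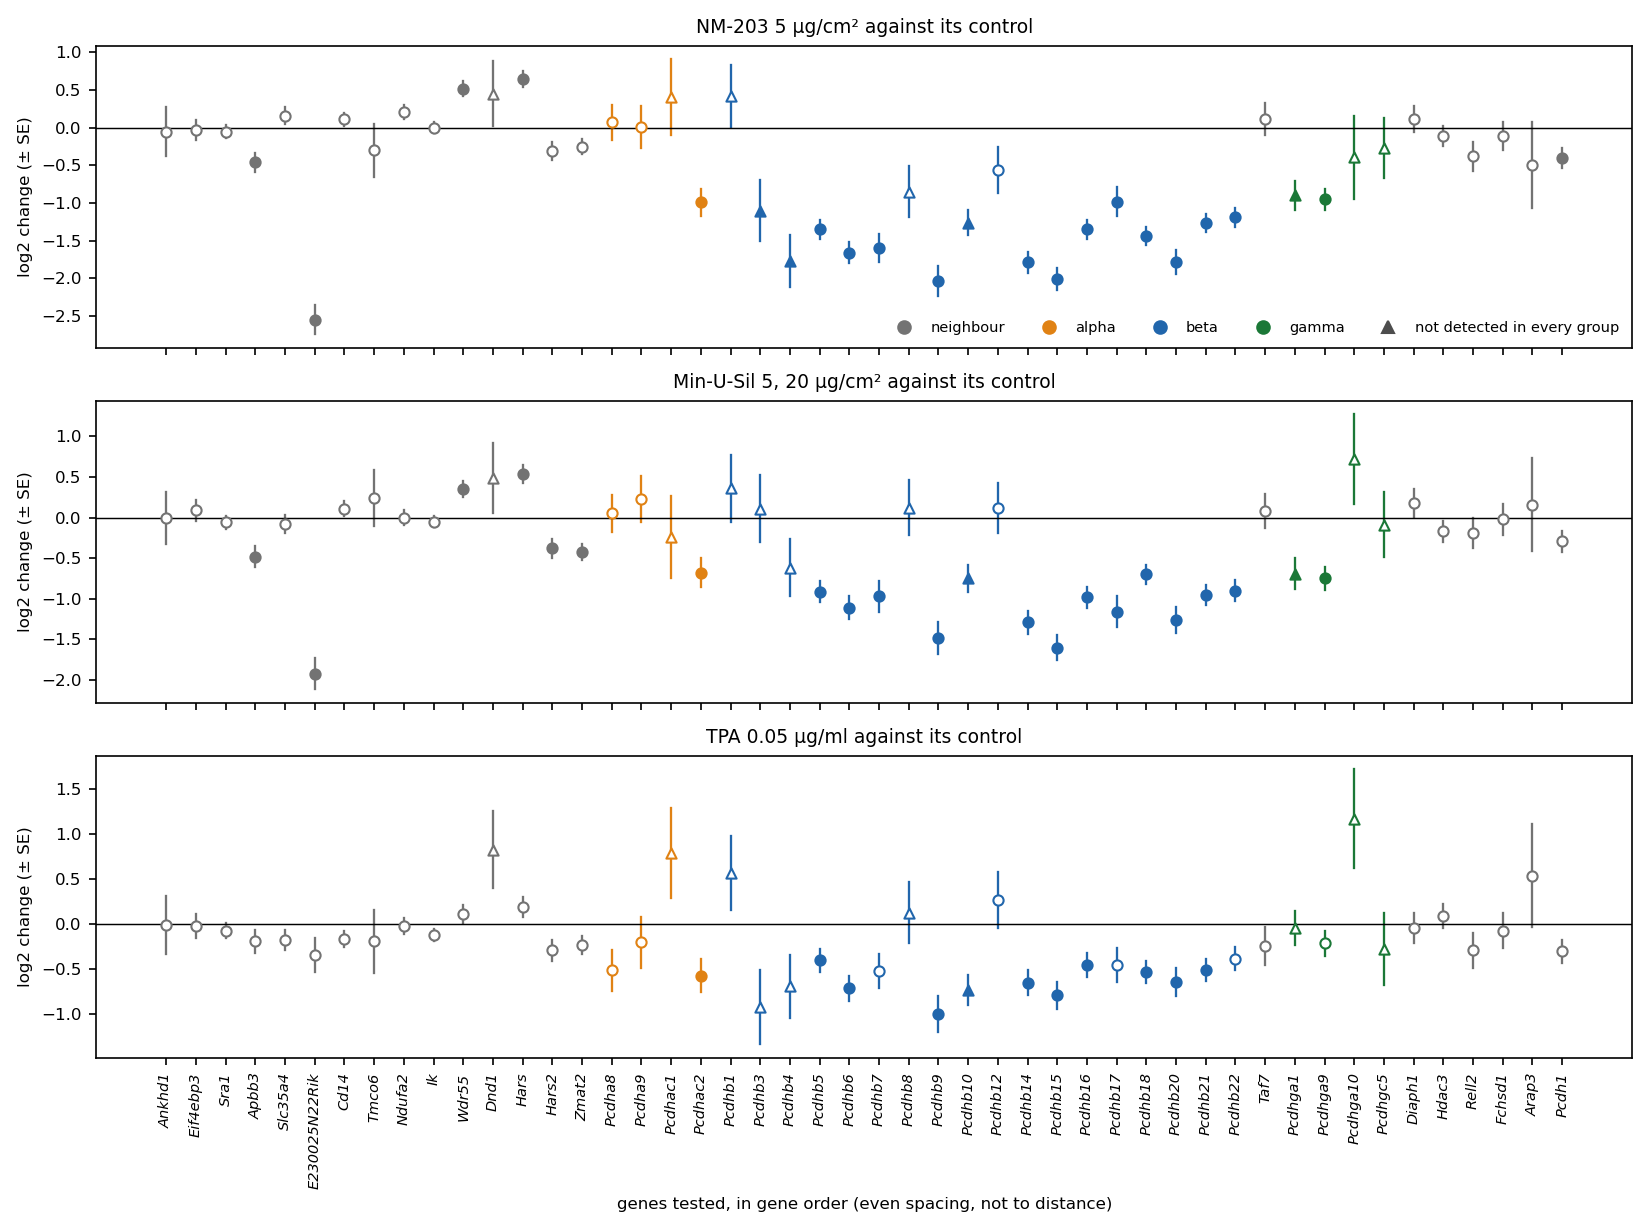
Log2 change (y axis; bars, ± SE) of every gene tested around the clusters, in gene order along the x axis at even spacing, for NM-203 at 5 µg/cm², Min-U-Sil 5 and TPA; filled points were called by limma and triangles mark genes not detected in every group. The beta genes from Pcdhb5 to Pcdhb22 lie below 0 in the upper panel, with Taf7 and Diaph1 near 0 on their far side.

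Protocadherins and large cadherins outside the clusters are single genes, of which Pcdh1 and Pcdh12 lie on the same chromosome as the clusters. Of 17 tested, NM-203 at 5 µg/cm² called 2 lower and 1 higher, Min-U-Sil 5 called 1 lower and 2 higher, and TPA called 1 lower and 1 higher, where 33.1%, 25.6% and 11.7% of all genes were called. Pcdh19, detected in every group, rose by 1.25 ± 0.38 with TPA (limma adjusted p = 0.0288). Celsr1 and Celsr3, large cadherins of planar cell polarity, had calls that are given without a size, because they were near background. Celsr1, called higher with Min-U-Sil 5, was well above background on 4 of 4 arrays there and on 0 of 4 control arrays. Celsr3, called higher with NM-203 at 2 µg/cm² against first-day water, was above background on 3 of 4 treated and 1 of 4 water arrays; against the same-day water arrays, detected on 4 of 4, it was lower and not called (limma adjusted p = 0.263). Pcdh18, chosen here after its values were seen, fell by 0.79, 0.77 and 0.54 on the log2 scale with NM-203 at 5 µg/cm², Min-U-Sil 5 and TPA (limma adjusted p = 3.63e-06, 9.76e-06 and 0.00238).

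Genes that act on protocadherin promoters were followed as a list of 21, all detected in every group: the boundary factor CTCF, cohesin and its loaders and releasers, DNA methyltransferases and demethylases, and repressors. With NM-203 at 5 µg/cm² 7 rose and 3 fell, with Min-U-Sil 5 5 rose and 2 fell, and with TPA 3 rose and 2 fell, where 33.1%, 25.6% and 11.7% of all genes were called. Dnmt1, the maintenance DNA methyltransferase, rose by 1.37 ± 0.14 with NM-203 at 5 µg/cm² (limma adjusted p = 4.76e-09), by 1.01 with Min-U-Sil 5 and by 0.76 with TPA. Dnmt3a, a de novo methyltransferase, went the other way in all 3, by -1.09 ± 0.11 (limma adjusted p = 1.73e-09), -0.86 and -0.99. Tet2, which oxidises methylcytosine, fell by 1.51 and 0.96 on the log2 scale in the 2 silica comparisons (limma adjusted p = 5.42e-05 and 0.00921). Dnmt3b was called in opposite directions, 0.45 ± 0.13 with NM-203 at 5 µg/cm² and -0.53 ± 0.13 with TPA, and Ctcf, the gene of CTCF, rose by 0.61 and 0.48 in the 2 silica comparisons; these were named after their values were seen.

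The proteins that protocadherin tails bind and the proteases that cut them formed a list of 17 genes tested. With NM-203 at 5 µg/cm² 3 rose and 4 fell, with Min-U-Sil 5 3 rose and 4 fell, and with TPA 3 fell, against the same 33.1%, 25.6% and 11.7% of all genes. Ptk2b, the tyrosine kinase Pyk2 that the alpha and gamma tails bind, fell by 0.93 (limma adjusted p = 3.03e-07), 0.75 (limma adjusted p = 2.02e-05) and 0.47 (limma adjusted p = 0.00997) on the log2 scale in these 3 comparisons. The WAVE complex genes Nckap1 and Abi1 both rose by 0.52 with NM-203 at 2 µg/cm² (limma adjusted p = 0.000473 and 0.000738). Against same-day water these were 0.36 (limma adjusted p = 0.0208) and 0.30 (limma adjusted p = 0.063), the latter not called. Adam10, a protease that sheds protocadherin ectodomains, fell by 0.39 with NM-203 at 5 µg/cm² (limma adjusted p = 0.00765).

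**Figure D5:**
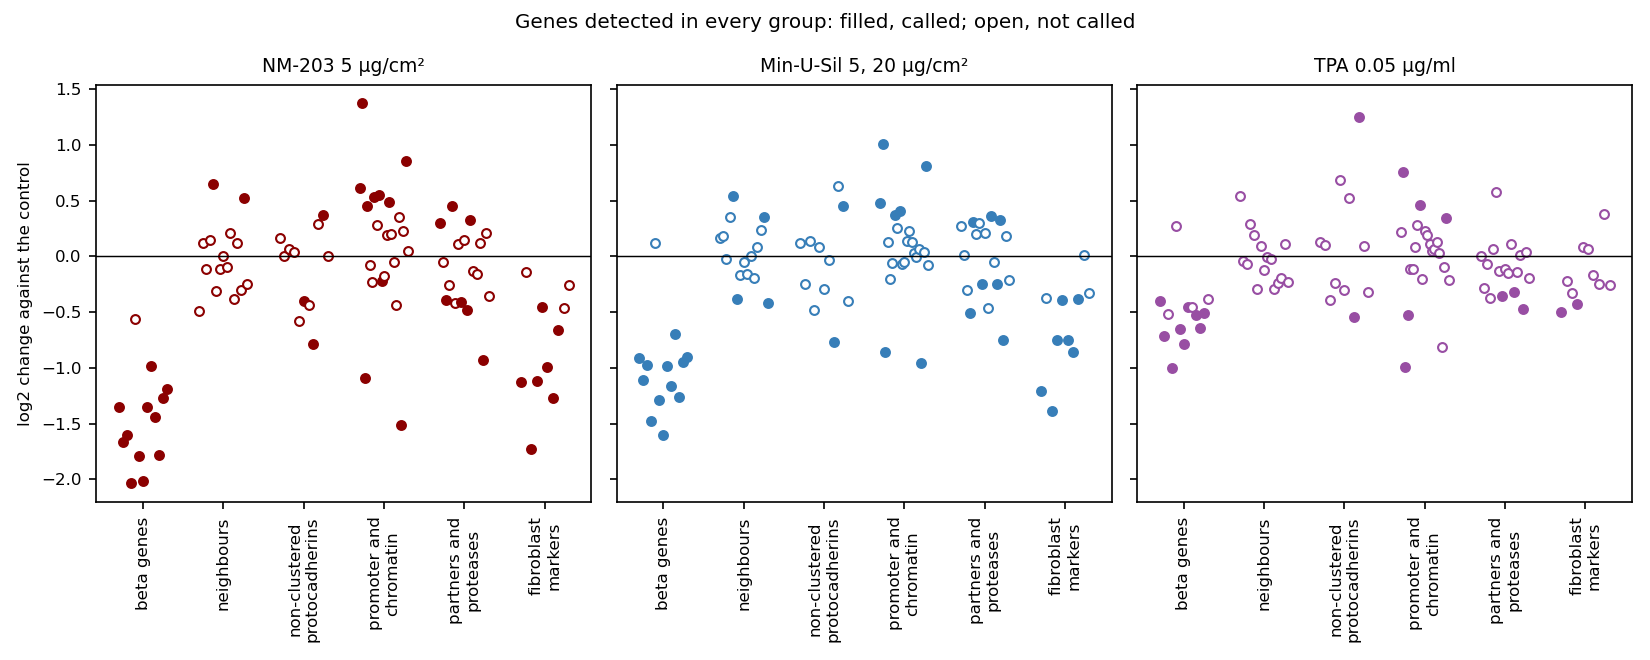
Log2 change against the control (y axis) of each gene detected in every group, for the 13 beta genes and 5 companion lists (x axis), with NM-203 at 5 µg/cm², Min-U-Sil 5 and TPA; filled points were called by limma. The beta genes lie between -2.03 and -0.56 in the first panel, while neighbours and promoter regulators spread to both sides of 0 and fibroblast markers lie mostly below it. The neighbours shown are those of the shorter list, which leaves out some genes nearby, the strongly lower E230025N22Rik among them.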

How the data were processed

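RNA of 36 samples was labelled with Cy3 and hybridised to 1-colour Agilent arrays, per the labels. The authors deposited spot intensity values from Agilent Feature Extraction 11.0.1.1, in which background and spatial trends had been subtracted and arrays not normalized to each other, per the file headers. The deposited value table holds log2 values whose scale and centring are not stated. It was used to check array identity and, by its own column labels, as an alternative in the fits. In the check, 33 of 36 arrays matched their own column best, and replicates 1, 2 and 3 of Min-U-Sil 5 matched another replicate of their group.

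Processed intensities were taken to log2, and the 75th percentile of each array's 59305 non-control spots was subtracted. Spots marked as outliers (74 to 380 per array) were left out, 0 spots were saturated, and 55.1% to 76.2% of probes per array were well above background. A probe was tested if 3 or more arrays of some group had it well above background (40680 probes), and the brightest probe stood for each of 32492 genes. Of these, 17870 had a symbol, and each array target without a symbol counted as a gene of its own. Symbols came from unversioned RefSeq accessions in a gene table of GRCm38.p6; the array was designed on mm9, so no coordinates are given, and no member's sequence is printed. All 9 group means were fitted with limma 3.58.1 in R 4.3.3 (27 residual degrees of freedom), with Benjamini-Hochberg adjustment; the script was tested on simulated data. Where a probe was above background on no array of a group, the fold is a bound, comparing the mean of the bright group with a dim-group mean in which each array takes its lowest well-above-background signal or the probe's own, whichever was higher. Summed marker levels add 2 to the power of each gene's level. Figures used matplotlib 3.10.9.

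The members and gene lists were chosen with earlier results of these data known. Full statistics are given in each comparison for up to 6 called beta genes and up to 4 called alpha or gamma genes with the largest change, and for up to 3 called genes of each other list; others are given by their values. Alternatives changed the background correction (normexp, offset 50), scaling, probe choice and filter, blocks, weights, groups fitted and arrays left out. A further alternative took the values of the deposited table in place of the scanner intensities.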

Additional observations from a re-analysis of the deposited data

Results flagged for a closer look

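Among 216 combinations of a member gene and a group, 17 held an array far from the other 3 by Dixon's test; chance alone gives about 1 in 20 such combinations. On the log2 scale, Min-U-Sil 5 replicate 3 was low for Pcdhb1 (-4.23), Pcdhb3 (-4.50) and Pcdhb10 (-4.92), replicate 4 for Pcdha8 (-3.08), replicate 1 for Pcdhb4 (-5.77) and replicate 2 for Pcdhb17 (-0.66). In water, replicate 1 was low for Pcdhb17 (-0.87) and replicate 4 for Pcdhb4 (-4.92), and in the Min-U-Sil 5 water replicate 4 was low for Pcdhb12 (-2.52). With NM-203 at 5 µg/cm², replicate 2 was high for Pcdhb4 (-5.31) and replicate 4 low for Pcdhb12 (-4.22). With NM-203 at 2 µg/cm², replicate 2 was low for Pcdhb7 (-3.02), and at 1 µg/cm² replicate 4 was low for Pcdhga10 (-7.54). In DE, replicate 2 was high for Pcdhb22 (-1.62). In DMSO, replicate 3 was low for Pcdhb6 (0.25) and high for Pcdhga10 (-6.02), and replicate 2 was high for Pcdhb14 (-1.07). The 3 low values of Min-U-Sil 5 replicate 3 were all of dim genes.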

How the results depend on the processing

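Of 547 values of 27 results for single members under the alternatives, 0 changed direction, 533 kept their side of the threshold and 14 lost the call. Water and NM-203 at 2 µg/cm² differed in 4 members instead of 10 with the slide as a block, and likewise 4 with scan day as the block. TPA against DMSO gave 5 instead of 9 with arrays scaled on their median over tested genes, and the difference between the TPA and NM-203 effects gave 7 instead of 12. The difference between the Min-U-Sil 5 and NM-203 effects gave 2 instead of 0 with array weights, and that between TPA and Min-U-Sil 5 gave 0 instead of 1 with normexp and quantile normalization, with median scaling, with the slide as a block and without slide 4 (chosen after seeing the data), and 4 with array weights; the cause was not tested. Leaving out each replicate in turn gave 0 members for NM-203 at 1 µg/cm² and for DE, 9 to 10 at 2 µg/cm², 13 to 14 at 5 µg/cm², 13 for Min-U-Sil 5 and 7 to 9 for TPA; NM-203 at 5 µg/cm² gave 13 to 14 against DE and 13 against 1 µg/cm². The differences of effects gave 12 to 13 (TPA and NM-203), 0 to 1 (Min-U-Sil 5 and NM-203) and 0 to 3 (TPA and Min-U-Sil 5). Scaling on the median moved the median of all genes in NM-203 at 5 µg/cm² from 0.007 to 0.11, and the share of lower calls among all calls from 58.1% to 44.4% in TPA, from 44.6% to 22.2% in DE and from 52.2% to 39.3% for NM-203 against DE. Whether replicate numbers pair the samples could not be settled. Same-numbered arrays correlated from -0.602 to 0.334 in their deviations. Both ends came from Min-U-Sil 5, whose replicates 1, 2 and 3 best matched another replicate's column in the deposited table. For TPA and DMSO the values were 0.011, 0.073, 0.236 and 0.172, and the other comparisons had values of both signs. With the replicate number as a block, 10, 13, 13 and 8 members were called for the 2 higher NM-203 doses, Min-U-Sil 5 and TPA. Dim members were limited by background: 8 of 24 were not well above it in every group.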
